A study of Mus musculus with 4 samples.

Results

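The 9 genes described here mark the making of bone-forming cells: Runx2 and Sp7, which encode transcription factors, and Alpl, Ibsp, Spp1, Bglap, Mmp13, Ostn and Ifitm5, which encode an enzyme of mineralisation, matrix proteins, a collagenase, a secreted peptide and a membrane protein of osteoblasts. They were taken by gene symbol from the 32285 features of the deposited tables, and all 9 were found. Their transcripts were counted by droplet sequencing in whole noses taken from mouse embryos on day 14.5 of gestation, in 2 control and 2 mutant libraries. After cells under 500 detected genes or over 10% mitochondrial transcripts were dropped, 13739 cells remained, of which 4370 held at least 1 Runx2 transcript.

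The mutants carried the transgene Tg(Sox10-cre)1Wdr, in which Sox10 sequences drive Cre recombinase in neural crest and its descendants. Per the series design they also carried 1 floxed and 1 wild-type allele of Yap and 2 floxed alleles of Taz, so any loss was limited to cells with a history of Cre activity. Taz is the gene listed as Wwtr1. The sample labels give the controls as C57Bl/6J, whereas the design gives yap flox/flox; taz flox/flox animals without Cre, and this was not settled. The labels speak of 2 noses of each kind and do not state that each library is a separate animal, so p-values measure the spread between libraries, which may be partly technical. A pair of sequencing providers is named, but the provider of each library is not, so the providers and the groups cannot be told apart.

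Osteoblasts of the face arise from mesenchyme of the cranial neural crest, directly in membrane bones or on a cartilage template. Runx2 commits mesenchymal cells to the skeletal lineages, Sp7 (osterix) acts after it and is required for osteoblasts to form, and Alpl, an alkaline phosphatase, removes pyrophosphate and so permits mineral to grow. Ibsp (bone sialoprotein) and Spp1 (osteopontin) are acidic matrix proteins of the SIBLING family, Bglap (osteocalcin) is a late matrix protein, and Ifitm5 is a membrane protein largely restricted to bone. Mmp13 cleaves fibrillar collagen, and Ostn (osteocrin) is a peptide secreted by periosteal and young bone-forming cells that binds the natriuretic peptide clearance receptor Npr3.

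On GRCm38 with GENCODE M21 gene models, Runx2 spans chr17:44495987-44814797 and Sp7 spans chr15:102356606-102367182, both on the minus strand. Alpl lies at chr4:137741733-137796384 and Ifitm5 at chr7:140948958-140950291, both on the minus strand. Ibsp at chr5:104299171-104311469 and Spp1 at chr5:104435118-104441050 lie on the plus strand with 123.649 kb between them. Mmp13 lies at chr9:7272514-7283331 and Ostn at chr16:27307489-27351212, both on the plus strand. Bglap at chr3:88383501-88384464 has the near-identical neighbours Bglap2, 4.802 kb away at chr3:88377736-88378699, and Bglap3 at chr3:88368616-88372743, all on the minus strand. Reads that fit more than 1 of these 3 copies may be split or dropped, so Bglap values are uncertain to that extent.

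Upstream sequences are shown for Spp1, Bglap and Mmp13, which were higher in the Ibsp-detected cells described further on and whose windows held the motif named below. Alpl and Ifitm5 were also higher in those cells, and their windows held no match, so the motif did not go with the rise in each gene. Each run is the 250 bases before the RefSeq start on GRCm38.p6, written 5-prime to 3-prime on the gene's own strand, with the letters ACCACA in capitals. ACCACA, with its reverse complement TGTGGT, is the core that Runx proteins recognise; both strands were searched, and no other motif was. The windows are chr5:104434861-104435110 for Spp1, chr3:88384467-88384716 for Bglap and chr9:7272264-7272513 for Mmp13.
Spp1: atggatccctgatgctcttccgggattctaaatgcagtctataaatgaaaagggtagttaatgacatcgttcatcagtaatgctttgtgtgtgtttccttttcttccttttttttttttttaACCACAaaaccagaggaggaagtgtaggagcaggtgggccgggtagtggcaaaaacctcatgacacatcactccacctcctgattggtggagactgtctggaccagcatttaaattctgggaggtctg
Bglap: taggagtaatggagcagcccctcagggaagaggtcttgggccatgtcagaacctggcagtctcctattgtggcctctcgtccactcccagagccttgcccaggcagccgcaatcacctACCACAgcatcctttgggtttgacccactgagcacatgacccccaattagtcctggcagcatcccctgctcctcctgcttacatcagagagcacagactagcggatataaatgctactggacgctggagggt
Mmp13: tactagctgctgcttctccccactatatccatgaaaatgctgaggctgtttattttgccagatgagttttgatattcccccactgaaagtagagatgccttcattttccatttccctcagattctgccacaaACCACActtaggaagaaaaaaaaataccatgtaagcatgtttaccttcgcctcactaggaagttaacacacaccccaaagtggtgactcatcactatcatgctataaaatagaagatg
The motif began 128 bases before the start in Spp1, 132 in Bglap and 118 in Mmp13. It was also present in the window of Runx2 at 80 bases, and its letters were not in the windows of Alpl, Ibsp and Ifitm5. Of the 9 genes, 7 had a window in the RefSeq table, and 4 of these 7 held the motif, against 4614 of 32851 windows of the same length over all genes (14.0%). A match is a description of letters and not a measured binding site.

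Values for single libraries are given in the order control 1, control 2, mutant 1, mutant 2. A level is in CPM: the unique molecular identifiers (UMIs, each a tag for 1 captured molecule) of a gene, summed over the cells and divided by all UMIs of those cells, times 1000000. Kept cells numbered 4075, 2474, 2995 and 4195, and held 35331450, 19767873, 29121739 and 26874057 UMIs with medians of 7033, 6878.5, 8549 and 5282 per cell. Library pairs shared between 4 and 8 cell barcodes. An unnamed cluster of 100 shallow cells, 99 of them from mutant 2, mixed endothelial, cartilage and bone genes, and results were also computed without it. The targeted gene Yap1 stood at 65.0, 65.2, 56.4 and 56.0 CPM and Wwtr1 at 118, 145, 123 and 132 CPM over all kept cells. These counts come from the 3-prime end of transcripts and from all cell types of the nose, and whether they fall in the floxed segments was not checked, so they do not test the deletion.

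Cells were clustered without the 9 genes and without Bglap2 and Bglap3, so that their levels played no part in the grouping. A single cluster, of 240 cells, met 14 of 16 osteoblast markers (among them Dlx5, Phex, Smpd3 and Col1a1) and is called osteoblast-like. It held 108, 21, 38 and 73 cells, or 2.65%, 0.849%, 1.27% and 1.74% of kept cells. Of the other 22 clusters with at least 20 cells in every library, mesenchyme cluster 0 held 1105 cells with Runx2, Alpl and Clec11a among its leading genes and mesenchyme cluster 8 held 549 cells led by the mitotic genes Top2a and Cenpf.

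Runx2 was spread over much of the mesenchyme. In all kept cells it stood at 216, 184, 178 and 218 CPM and was detected in 35.7%, 29.4%, 30.6% and 30.3% of cells. By cluster its mean over the 4 libraries (± SD, n = 4) was 1437 ± 175 CPM in the osteoblast-like cluster, 990.5 ± 77.5 in mesenchyme cluster 0 and 452 ± 72.8 in mesenchyme cluster 8. These 3 ranges over libraries did not overlap, whereas cluster 8 overlapped with the next, an unnamed cluster with cartilage genes at 428 ± 62.8 CPM. Chondrocyte-like cells held 178, 117, 187 and 109 CPM. In glia-like cells Runx2 was near 0, at 2.39, 0, 5.36 and 0 CPM, and in keratinocyte-like cells it stood at 48.4, 22.9, 25.3 and 44.1 CPM.

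Sp7 and Alpl had the same 3 clusters at the top, in the same order. Sp7 stood at 259, 181, 231 and 191 CPM in the osteoblast-like cluster, with a mean of 52.1 ± 4.09 CPM in mesenchyme cluster 0 and 31.3 ± 15.3 CPM in cluster 8 (SD, n = 4). No Sp7 UMI was counted in chondrocyte-like or glia-like cells. Alpl stood at 652, 764, 666 and 677 CPM in the osteoblast-like cluster, against 229 ± 51.3 in mesenchyme cluster 0 and 76.5 ± 28.7 in cluster 8, and below cluster 8 the ranges overlapped. Alpl was detected in 90.7%, 100%, 94.7% and 98.6% of osteoblast-like cells.

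Ibsp and Ifitm5 separated the osteoblast-like cluster most widely from the rest. Ibsp stood there at 19923, 12757, 15634 and 13316 CPM, and the next of the 23 clusters with at least 20 cells in every library, mesenchyme cluster 0, reached 67.6 ± 33.7 CPM. Ifitm5 stood at 1920.3, 1047, 1490.4 and 1247 CPM against 23.8 ± 9.64 CPM in mesenchyme cluster 0. The unnamed shallow cluster, which was not ranked, held 1350.4 CPM of Ibsp and 119.5 CPM of Ifitm5. For neither gene did the osteoblast-like range touch that of any other ranked cluster, while the order of the clusters below was not separated. A low count of Ibsp in other cells was common: 11.0%, 1.85%, 1.72% and 2.68% of keratinocyte-like cells held an Ibsp UMI, at median depths of 10324, 8711, 10479.5 and 6834.5 UMIs. A single Ibsp UMI in a cell of control 1 is therefore close to that background. Of 1001 cells with Ibsp, 553 (55.2%) also held Runx2, and of the 448 that did not, 15 held at least 5 Ibsp UMIs. By contrast 636 of 710 cells with Sp7 (89.6%) held Runx2.

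Spp1 and Mmp13 were carried by few cells. In the osteoblast-like cluster Spp1 stood at 1615, 194, 3130.3 and 3004 CPM, so control 2 lay far below the other libraries. It was detected in 18.5%, 23.8%, 23.7% and 19.2% of the cells of that cluster, and the 3 highest cells held 49.6%, 91.2%, 97.5% and 73.8% of its Spp1 UMIs. Macrophage-like cells came next at 59.9, 11.1, 58.7 and 237 CPM, where 112 of the 174 UMIs in mutant 2 were in 1 cell, so the range of that class touched the osteoblast-like range. Mmp13 in the osteoblast-like cluster rested on 3, 3, 31 and 18 UMIs in 2, 2, 2 and 4 cells, at 2.65, 10.2, 60.2 and 25.4 CPM. In the keratinocyte-like cells of mutant 1, 15 of 19 Mmp13 UMIs were in 1 cell.

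Bglap was scarce at this stage. Its level in the osteoblast-like cluster was 22.1, 20.5, 1.94 and 84.8 CPM, and in mutant 2 its 60 UMIs lay in 5 cells with 26 of them in 1. The unnamed cluster of 100 shallow cells held 16 Bglap UMIs, at 63.7 CPM for the libraries summed, above the 34.7 CPM of the osteoblast-like cluster. In mutant 2, which gave 99 of those cells, it stood at 65.7 CPM there and so below the 84.8 CPM of the osteoblast-like cells. Over all kept cells it did not pass 3.09 CPM in any library.

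Ostn did not share the osteoblast-like peak. It was highest in mesenchyme cluster 0, at 43.9, 41.3, 52.3 and 61.0 CPM, followed by mesenchyme cluster 8 at 16.5 ± 15.2 CPM (SD, n = 4), and these ranges did not overlap. In the osteoblast-like cluster 0, 0, 3 and 4 Ostn UMIs were counted, or 0, 0, 5.82 and 5.65 CPM, which placed it sixth among the clusters. Over 108 sums of a cluster in a library, which share libraries and depth, the Pearson correlation of log2(CPM + 10) was 0.94 between Ibsp and Ifitm5, 0.54 between Ostn and Runx2, 0.19 between Ostn and Ibsp and 0.02 between Ostn and Bglap.

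**Figure D1:**
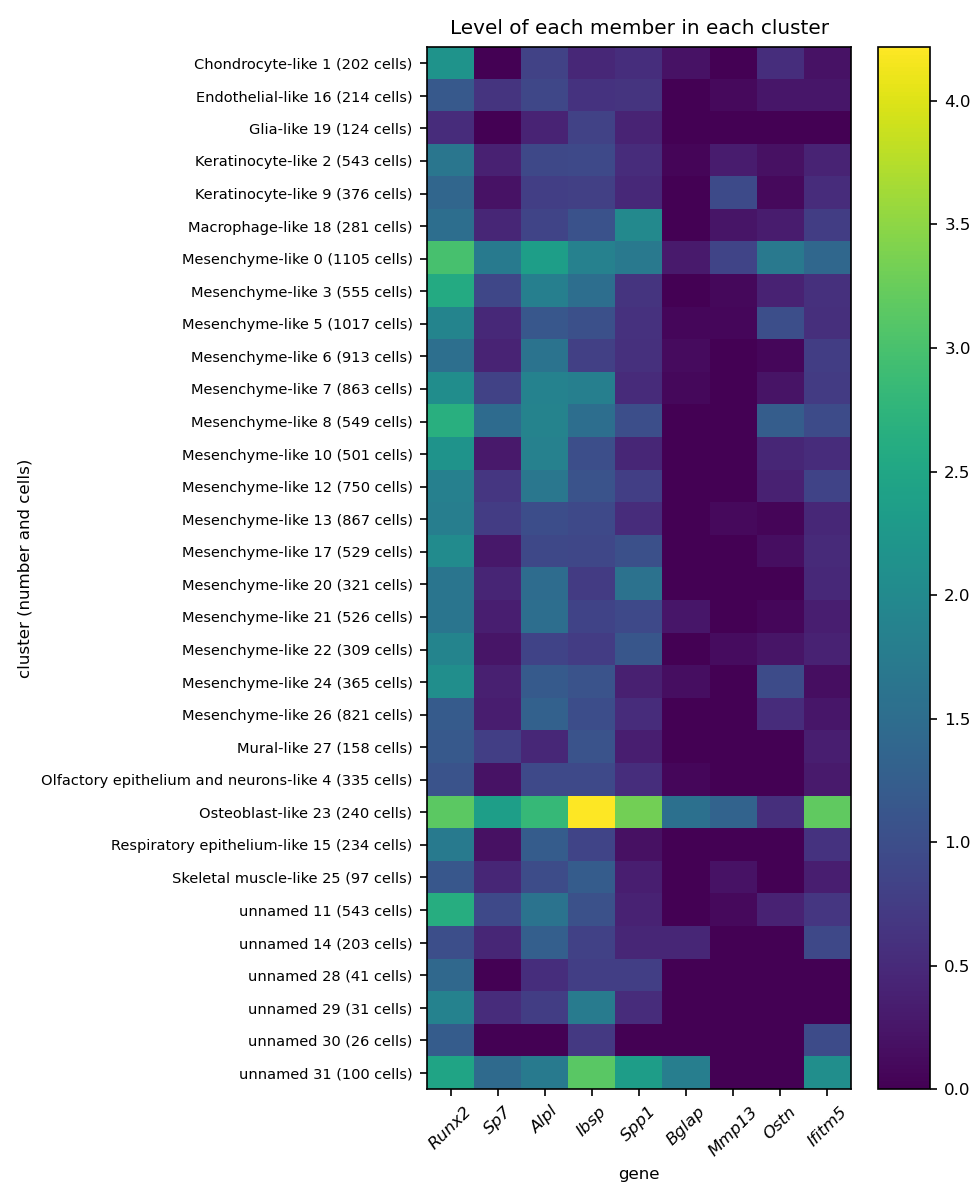
Level of each of the 9 genes (columns) in each cluster (rows, with the number of cells), as log10(CPM + 1) of the 4 libraries summed, on a colour scale. Runx2, Sp7, Alpl, Ibsp, Spp1, Mmp13 and Ifitm5 peak in the osteoblast-like cluster and Ostn in mesenchyme cluster 0, while Bglap is highest in the unnamed cluster of 100 shallow cells (63.7 CPM) and next in the osteoblast-like cluster (34.7 CPM).

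With finer clustering (Leiden resolution 2), again without the 9 genes taking part, 3 clusters were osteoblast-like by their markers. Cluster 5 met 3 of the 16 markers, Dlx5 and Omd among them, and held 86, 12, 34 and 52 cells. It had Runx2 at 1006, 1222, 1040.3 and 1365 CPM and Alpl at 317, 285, 274 and 381 CPM, but Ibsp at 78.7, 0, 37.3 and 156 CPM and no Bglap UMI. Clusters 32 and 33 met 12 and 13 of the markers. Cluster 32 held 63, 19, 27 and 57 cells and cluster 33 held 61, 8, 16 and 28. Ibsp was 2785, 2403, 3875 and 1869 CPM in cluster 32 and 36504, 35794, 32762 and 30968 CPM in cluster 33. Ifitm5 was also higher in cluster 33, going from 899, 547, 533 and 612 CPM to 2771, 1910.4, 2895 and 2163 CPM. Every library was higher in cluster 33 for both genes. Runx2 went the other way in each library, from 1385, 1283, 1814 and 1712 CPM to 1207, 1087, 1134 and 1244 CPM. Alpl (609, 676, 676 and 649 against 671, 778, 607 and 684 CPM) and Sp7 (245, 189, 195 and 172 against 254, 183, 281 and 198 CPM) had overlapping ranges in these clusters. Bglap reached 40.8, 22.9, 4.93 and 219.6 CPM in cluster 33, above its 5.32, 14.8, 0 and 5.60 CPM in cluster 32 in each library.

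The genes whose levels were most like each member's over the same 108 sums were chosen by the highest correlation, as a description. Ibsp was most like Smpd3 (0.93), a sphingomyelinase needed for mineralisation, Panx3 (0.90), a channel of skeletal cells, and Slc13a5 (0.90), a citrate transporter. Ifitm5 had the same 3 neighbours at 0.94, 0.94 and 0.93 for Panx3, Smpd3 and Slc13a5. Sp7 was nearest to Panx3 (0.89), Smpd3 (0.87) and Cmya5 (0.82), and Spp1 to Col22a1, Panx3 and Slc13a5 at 0.81 each. Runx2 was nearest to Clec11a (0.79), which encodes a bone growth factor, Chrdl1 (0.78) and Cercam (0.77), and Alpl to Omd (0.78) and Chrdl1 (0.75). Bglap was nearest to Mlip (0.80), Dmp1 (0.78) and Gm13832 (0.74), and Mmp13 to Vdr (0.74), Panx3 (0.72) and Sgms2 (0.71). Ostn had the loosest neighbours, Shank1 (0.60), Podnl1 (0.60) and Sfrp4 (0.59).

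The order in which the genes appear was described among Runx2-detected cells. Because a share of cells with a UMI depends on depth, each cell was thinned to 3000 UMIs. Shallower cells were left out (268, 172, 211 and 543 cells). Runx2 was also read again after thinning, so cells with few Runx2 UMIs were more easily lost. This left 2842 Runx2-detected cells. Alpl was detected in 28.1%, 18.6%, 25.3% and 31.2% of them, above every other member in every library. Pooled, Alpl was in 26.8% (exact 95% interval 25.2 to 28.5), Ibsp in 10.3% (9.22 to 11.5), Sp7 in 8.94% (7.91 to 10.0) and Ifitm5 in 8.02% (7.05 to 9.08). Ostn was in 3.87% (3.19 to 4.65), Spp1 in 3.10% (2.49 to 3.80), Mmp13 in 0.774% (0.486 to 1.17) and Bglap in 0.563% (0.322 to 0.913). Intervals cover counting error only. The shares of Ibsp, Sp7 and Ifitm5 overlapped between libraries and are not ordered, and neither are Ostn and Spp1 or Mmp13 and Bglap. Without thinning, Sp7 (14.6%) was above Ibsp (12.7%), the reverse of the thinned order. A share mixes how many cells carry a gene with how strongly they carry it, so this is an order of detection and not of time.

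**Figure D2:**
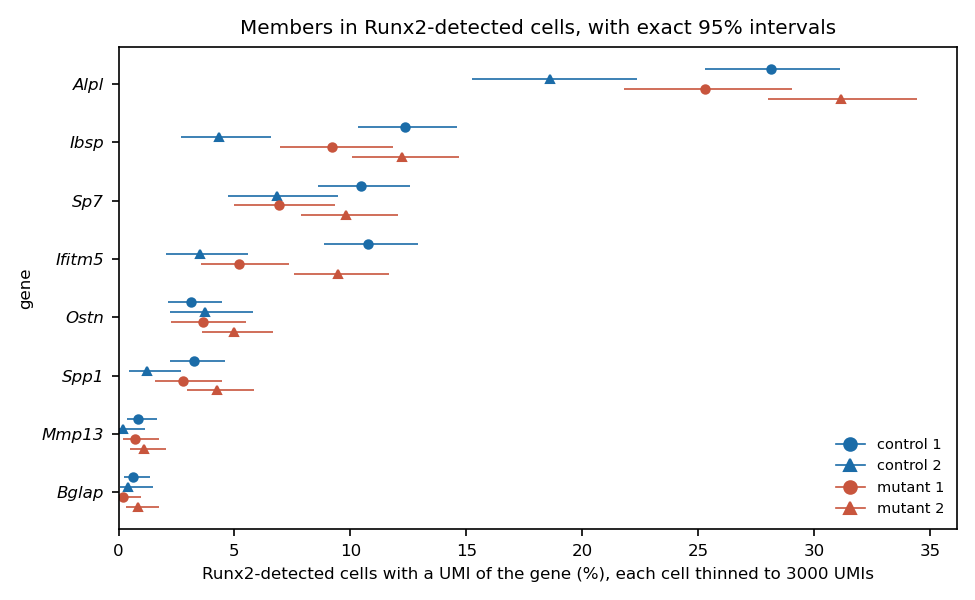
Share of Runx2-detected cells, thinned to 3000 UMIs, with a UMI of each other member (horizontal axis, percent; rows, genes; points, single libraries with exact 95% intervals; colours, control and mutant). Alpl stands apart at 18.6% to 31.2%, and Bglap and Mmp13 lie near 0.

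Nesting was read from cells with a UMI of one gene that also held another, without thinning. Of 636 Runx2-detected cells with Sp7, 81.3% also held Alpl, whereas of 1574 with Alpl only 32.8% held Sp7. Of 368 with Ifitm5, 81.8% held Alpl, 62.8% Sp7 and 63.0% Ibsp, whereas 36.3% of Sp7 cells held Ifitm5. Alpl was thus the wider set around Sp7. This also held in thinned cells, where 63.8% of Sp7 cells held Alpl and 21.3% of Alpl cells held Sp7. Sp7 was the wider set around Ifitm5 only without thinning. In thinned cells these shares were close: 36.4% of 228 Ifitm5 cells held Sp7 and 32.7% of 254 Sp7 cells held Ifitm5. All these shares rise with a cell's depth.

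Bglap, and less so Mmp13 and Spp1, was found in cells with Ifitm5 or Ibsp. Of 33 Runx2-detected cells with Bglap, 93.9% held Ifitm5, 84.8% Ibsp, 78.8% Alpl and 63.6% Spp1. Of 38 with Mmp13, 89.5% held Alpl, 57.9% Ibsp, 36.8% Sp7 and 34.2% Ifitm5. Of 178 with Spp1, 50.6% held Alpl, 48.3% Ibsp and 38.2% Ifitm5, so close to equal numbers of Spp1 cells lay outside the Ibsp set. Ostn cells formed a different combination: of 218, 62.8% held Alpl and 28.0% Sp7, but 7.80% held Ibsp, 8.26% Ifitm5, 1.83% Spp1 and none Bglap or Mmp13.

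**Figure D3:**
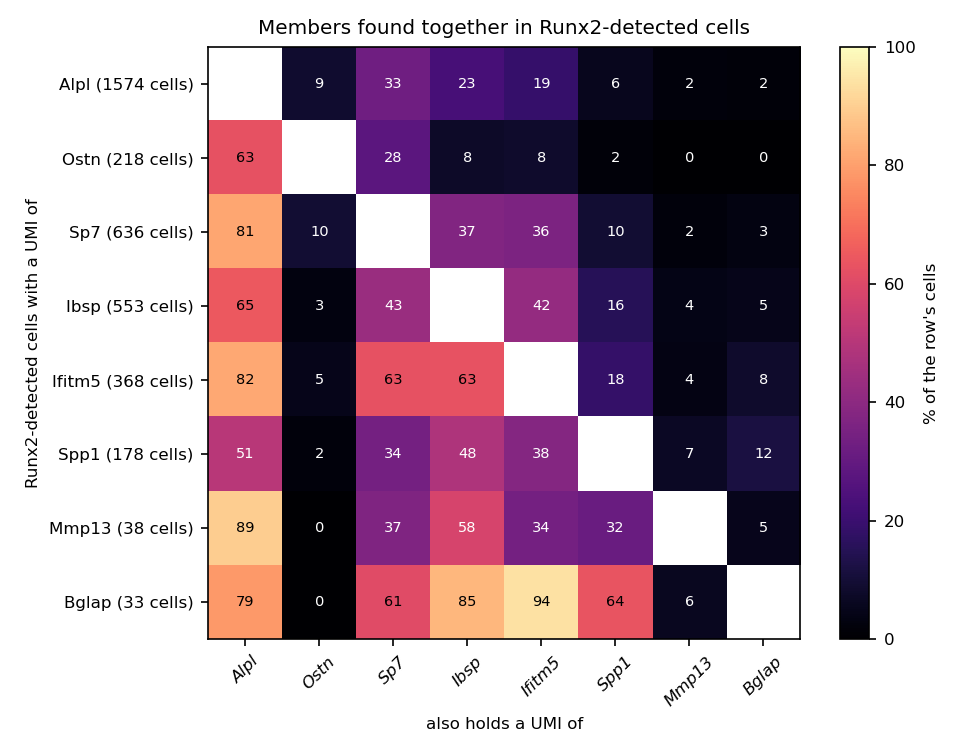
Among Runx2-detected cells with a UMI of the row gene, the percentage that also hold the column gene (colour and printed percent, libraries pooled, unthinned; the number of cells stands beside each row gene). The Bglap row is high for Ifitm5 (93.9%) and Ibsp (84.8%), and the Ostn row is low for both.

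To compare the other members between such cells, Runx2-detected cells were put into 3 gates by their own transcripts. The gates are classes of cells, so the words step, rose and fell below compare gates. An order of the gates in time was not tested. Gate 1 held Runx2 without Sp7 or Ibsp (3419 cells), gate 2 held Runx2 and Sp7 without Ibsp (398 cells) and gate 3 held Runx2 and Ibsp (553 cells). Runx2, Sp7 and Ibsp chose the gates, so their values there are descriptions. Runx2 stood at 382, 423, 390.3 and 461 CPM in gate 1, at 969.8, 1227, 1071 and 1142 in gate 2 and at 831, 890.3, 1048 and 1031 in gate 3. Sp7 stood at 154, 153, 137 and 179 CPM in gate 2 and at 109.9, 141, 111 and 110.04 in gate 3, where 41.2%, 52.5%, 40.4% and 45.3% of cells held it. Ibsp in gate 3 was 7936, 7417, 7561 and 7465 CPM. Just at the threshold, 309 of the 553 gate 3 cells held 1 to 4 Ibsp UMIs.

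Gates differed in depth and in other cells. Median UMIs per cell were 5690.5 to 9152 in gate 1, 8348 to 11010.0 in gate 2 and 7521 to 10916 in gate 3. Mesenchyme cluster 0 gave 54.3% of gate 2 cells and 19.9% of gate 1 cells, cluster 8 gave 16.6% of gate 2, and the osteoblast-like cluster gave 36.5% of gate 3. All 10 keratinocyte markers were detected in every library of gate 1, with summed levels of 482 to 887 CPM, against 54.8 to 133 CPM in gate 2. In gate 3 these markers summed to 603, 1474, 57.6 and 123 CPM. Chondrocyte markers summed to 360.0 to 861 CPM in gate 1, 154 to 225 in gate 2 and 182 to 662 in gate 3. The 5 markers of hypertrophic chondrocytes, of which Mef2c and Pth1r are also on the osteoblast list, summed to 273 to 396 CPM in gate 1, 641 to 766 in gate 2 and 865 to 1300.2 in gate 3. Of them Panx3 stood at 109 to 168 CPM and Ihh at 7.28 to 29.3 CPM in gate 3, whereas Col10a1 was at 0 in every library there and in the osteoblast-like cluster. The 8 osteoclast markers summed to 79.4 to 99.5 CPM in gate 1, 60.7 to 94.97 in gate 2 and 74.2 to 108 in gate 3. Ctsk made up most of this, at 68.4 to 94.4 CPM in gate 3 and 78.4 to 129.7 CPM in the osteoblast-like cluster. Acp5 (1.80 to 5.89 CPM) and Mmp9 (1.95 to 13.5 CPM) were detected in every library of gate 3, Calcr in control 1 alone, and Dcstamp, Ocstamp, Atp6v0d2 and Oscar were at 0 in both cell sets. The part that the other cells of gates 1 and 3 play in the results below was not tested.

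From gate 1 to gate 2, Alpl, Ostn and Ifitm5 were called higher among the 6 members that the gates did not use, and rose in every library. Bglap was also called higher, on few UMIs and without a rise in control 2 or mutant 1. The test was edgeR's quasi-likelihood test on UMI sums per gate and library, with library as a block and Benjamini-Hochberg adjustment over 11497 genes, of which 17.3% were called, 8.52% higher and 8.75% lower. None of the 6 members was called lower at this step. Sums cannot tell apart more cells with a gene from more of its RNA per cell. The next step shares gate 2 with this one, so the changes of both steps are given side by side and are not independent.

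Alpl stood at 58.0, 44.2, 61.9 and 79.8 CPM in gate 1, 282, 166, 244 and 287 in gate 2 and 304, 492, 353 and 430.5 in gate 3. It rose in every library at both steps, and the gate 1 range lay below the others. Its log2 change was 2.14 ± 0.19 (SE, adjusted p = 2.5e-05) at the first step and 0.65 ± 0.19 (adjusted p = 0.039) at the second, where the call was lost without mutant 1 (adjusted p = 0.11) or without mutant 2 (0.12).

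Ifitm5 stood at 3.74, 1.92, 4.60 and 5.98 CPM in gate 1, 71.6, 21.2, 44.7 and 92.0 in gate 2 and 747, 611, 681 and 664 in gate 3. The 3 ranges did not overlap. Its log2 change was 3.95 ± 0.30 (SE, adjusted p = 8.7e-06) and then 3.54 ± 0.21 (adjusted p = 5.8e-07), called under each of the alternatives run for both steps, with 1.86 at the first step for cells thinned to 3000 UMIs.

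Ostn was higher in gate 2 than in gates 1 and 3. It stood at 10.3, 11.0, 8.57 and 11.7 CPM in gate 1, 34.8, 21.2, 57.0 and 52.8 in gate 2 and 5.55, 9.76, 2.70 and 11.9 in gate 3. Gate 2 lay above both other gates in every library, and gates 1 and 3 overlapped. The log2 change was 2.10 ± 0.27 (SE, adjusted p = 3.0e-04) and then fell by 2.59 ± 0.35 (adjusted p = 4.1e-04). In gate 2 the mutant libraries had 20.5% and 19.3% of cells with Ostn against 9.29% and 7.89% in the controls, which was not tested. Such a split is common: over all Runx2-detected cells, 20.7% of genes tested had a higher level in both mutants than in both controls. Its share over all genes within gate 2 was not counted.

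Spp1 was low in gates 1 and 2 and higher in gate 3. It stood at 4.35, 3.27, 4.48 and 5.70 CPM in gate 1, 11.4, 2.49, 4.47 and 34.3 in gate 2 and 642, 113, 1547 and 1780.0 in gate 3. The first step was not called (log2 change 1.70 ± 0.57, SE, adjusted p = 0.058), but it was called without control 2 (1.90, adjusted p = 0.014), without mutant 1 (1.89, 0.046), without marked doublets (1.93, 0.039) and without the filter on low counts (1.65, 1.5e-10), and with cells thinned to 3000 UMIs it was 0.03. The second was 6.14 ± 0.35 (adjusted p = 4.8e-07). In gate 3, 11.5%, 15.0%, 16.0% and 22.0% of cells held Spp1.

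Bglap was found almost wholly in gate 3. It had 2 UMIs in gate 1, 7 in gate 2 and 105 in gate 3, at 8.66, 11.7, 0.900 and 54.3 CPM in gate 3. By library, gate 1 held 0, 1, 0 and 1 Bglap UMIs and gate 2 held 2, 0, 0 and 5. The ratio of its pooled levels was 25.0 at the first step (exact 95% counting interval 4.76 to 247) and 10.8 at the second (5.06 to 27.5). Both steps were called (log2 changes 4.05 ± 0.95 and 3.42 ± 0.57, SE, adjusted p = 0.0105 and 0.0018). The first was lost without control 1 (adjusted p = 0.064) or mutant 2 (0.32) and the second without mutant 2 (0.082). Bglap2 had 1, 3 and 76 UMIs in the 3 gates and rose at the second step by 4.15 ± 0.86 (log2, adjusted p = 0.0075).

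Mmp13 stood at 0.809, 0.192, 0.256 and 1.11 CPM in gate 1, 2.01, 0, 0 and 0.979 in gate 2 and 4.51, 5.86, 36.0 and 23.0 in gate 3. It had 19, 4 and 87 UMIs in the 3 gates. The first step was not called (log2 change 0.70 ± 1.24, SE, adjusted p = 0.76, and -0.39 without control 1). The second was 3.91 ± 0.88 (adjusted p = 0.012, and 0.055 with cells thinned to 3000 UMIs).

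At the second step, then, 5 of the 6 members tested rose and Ostn fell, where 12.1% of 11497 genes were called, 7.85% higher and 4.22% lower. Bglap, Mmp13 and the paralog Bglap2 had only 7, 4 and 3 UMIs in gate 2. They passed the filter on low counts through gate 3, so their rises into gate 3 are not independent of that filter. The number of genes called depended on the libraries: without control 1 it went from 1986 to 913 at the first step and from 1387 to 706 at the second. Without mutant 2 it was 945 and 702, and without mutant 1 the second step gave 775. When gate 3 was restricted to the 244 cells with at least 5 Ibsp UMIs, an alternative added after seeing the data, 73.0% of its cells came from the osteoblast-like cluster and keratinocyte markers summed to 20.3 to 60.2 CPM. The direction of all 6 members' second steps was unchanged there.

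**Figure D4:**
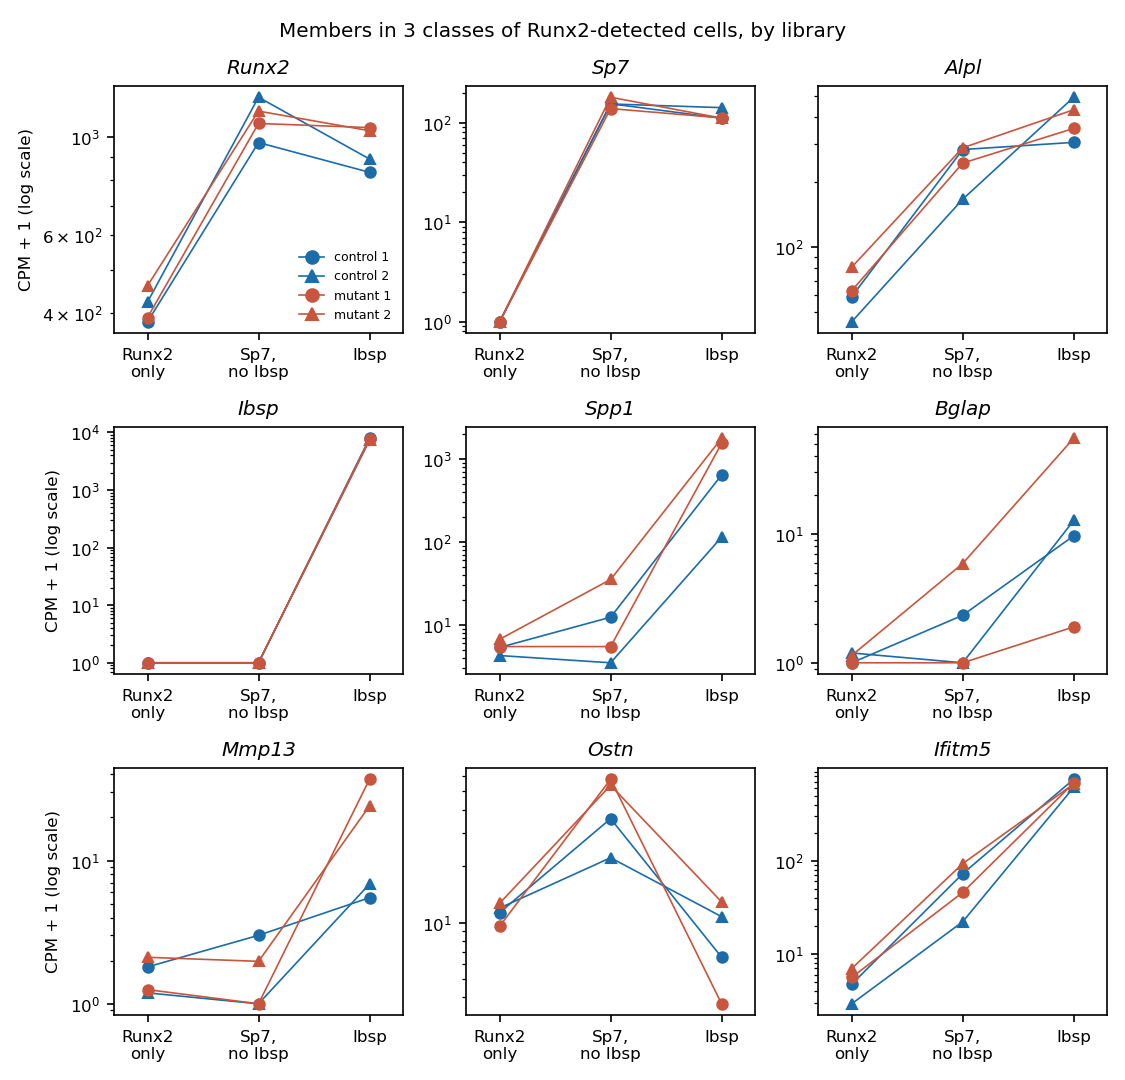
Levels of the 9 genes (CPM + 1, log axis) in gate 1 (Runx2 only), gate 2 (Sp7, no Ibsp) and gate 3 (Ibsp), with 1 line per library and colours for control and mutant. Ifitm5 rises at both steps in all 4 libraries, Spp1 rises mainly from gate 2 to gate 3, and Ostn is highest in gate 2.

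Other genes of bone formation moved around these members. Of 20 osteogenic transcription regulators, 7 rose at the first step (among them Dlx5, Dlx6, Msx1, Msx2, Mef2c and Runx3) and 3 fell (Twist2, Sox4 and Sox9), with a median log2 change of 0.26 beside 0.01 over all genes tested. At the second step 4 rose (among them Dlx3, Atf4 and Vdr) and 4 fell (Msx1, Zfp521, Twist1 and Runx3), with a median of -0.06. Mef2c rose by 1.22 ± 0.13 (log2, SE) at the first step, and its second step of 0.41 ± 0.13 was not called (adjusted p = 0.058).

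Genes of the bone matrix rose mostly at the second step. Of 23 listed, 7 rose and 1 fell at the first step (median log2 change 0.15), and 16 rose and 2 fell at the second (median 0.72, beside -0.00 over all genes). Col1a1, the main collagen chain of bone, stood at 2665, 2441, 1502 and 1608 CPM in gate 2 and 7779, 7368, 5921 and 7918 CPM in gate 3. No gate 3 library was as low as any of gate 2, and the log2 change was 1.84 ± 0.13 (SE, adjusted p = 2.4e-06). Col1a2 changed by 1.57 ± 0.11, Sparc (osteonectin) by 1.60 ± 0.11 and the collagen chaperone Serpinh1 by 0.77 ± 0.10. The 2 that fell were Postn and Tnc.

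Of 9 mineralisation genes tested out of 12 listed, Smpd3 and Slc13a5 rose at the first step, and at the second 5 rose (Phex, Enpp1, Ank, Smpd3 and Slc13a5) and Mgp, which encodes an inhibitor of calcification, fell by 1.04 ± 0.21 (log2, SE). The medians were 0.13 and 1.06 at the 2 steps. Phex, a peptidase of phosphate handling, went from 8.03, 2.49, 4.47 and 4.89 CPM in gate 2 to 76.9, 70.3, 70.2 and 79.6 in gate 3, with no overlap (log2 change 3.77 ± 0.25). Slc13a5 changed by 2.80 ± 0.64 and then 5.29 ± 0.30. The osteocyte and dentin gene Dmp1 rose at the second step by 4.89 ± 0.54, to 82.8, 5.86, 19.8 and 73.6 CPM, lowest in control 2 as Spp1 was. Of 9 listed genes of the SIBLING family and of osteocytes 4 were tested, of which Pdpn fell at the first step, and Pdpn also rose and Cd44 fell at the second (medians 0.07 and 0.53).

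Among 27 ligands and receptors of bone formation, 7 rose (Bmp2, Ihh, Ptch1, Fgfr2, Fgfr3, Tcf7 and Pth1r) and 5 fell (Fgf18, Wnt5a, Lrp6, Pthlh and Npr3) at the first step, where 8.52% of all genes were called higher and 8.75% lower. Their median log2 change was 0.03 beside 0.01 over all genes. Npr3, the receptor that Ostn binds, was thus lower in gate 2, where Ostn was highest, than in gate 1. Npr3 was not called at the second step, where Ostn fell. At the second step 4 rose (Bmp7, Ihh, Dkk1 and Pth1r) and 1 fell (Fgfr2), against 7.85% and 4.22% of all genes, with a median of 0.23. Fgfr2 changed from a rise of 0.52 ± 0.09 to a fall of 0.62 ± 0.09 (log2, SE). Of 8 cell cycle genes 6 rose and 0 fell at the first step (median log2 change 0.39), and 0 rose and 4 fell at the second (median -0.40), Top2a by 0.43 ± 0.09 and then -0.48 ± 0.10. Cells of the mitotic mesenchyme cluster 8 were 16.6% of gate 2, whose part in this was not tested.

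The largest rises at the first step were Smpd3 (log2 change 4.31), Ihh (4.28), Panx3 (3.86), Mlip (3.34) and D030025E07Rik (3.33). The largest falls were of Hba-a2, S100a8, Bpifa1, Reg3g and Serpinb11, genes of blood cells and surface epithelia, of which Bpifa1 alone had any UMI in gate 2. At the second step Ccdc194, Sox21, Lipi, Mamdc2 (6.07) and Col11a2 (5.98) rose most, the first 2 from 0 UMIs in gate 2. The largest falls there were Ccl7, Ptgfr (-2.55), Trpm5, Actr3b and Mc5r.

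The study's own comparison is of control and mutant libraries, and no member was called in it. In all kept cells edgeR called 0 of 18080 genes (0.0%), in Runx2-detected cells 0 of 15291 (0.0%) and in the osteoblast-like cluster 0 of 7471 (0.0%), with 883, 623 and 371 genes at an unadjusted p under 0.05. DESeq2 called 30, 7 and 0. Both fits set 2 libraries against 2.

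Runx2 itself was 216 and 184 CPM in the controls and 178 and 218 in the mutants over all cells, a log2 change of -0.05 ± 0.13 (SE), with overlapping groups. The share of cells with Runx2 after thinning was 25.1%, 21.0%, 20.7% and 22.6%, a mean of 23.1% in controls and 21.7% in mutants (exact permutation test, two-sided, n = 2 against 2, p = 0.67, smallest possible 0.33). Of Runx2-detected cells, 10.5%, 6.82%, 6.93% and 9.82% held Sp7 (exact permutation p = 1.0). Ibsp was held by 12.3%, 4.34%, 9.19% and 12.2% (exact permutation p = 1.0). The 2 controls lay at both ends of the Ibsp shares, with both mutants between them.

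The same spread of the controls showed in the levels of Ibsp and Ifitm5. Ibsp over all cells was 662, 194, 293 and 379.8 CPM and Ifitm5 was 66.7, 18.0, 29.5 and 39.9 CPM, each with the mutants between the controls. Their log2 changes were -0.38 ± 0.52 and -0.34 ± 0.55 (SE). In Runx2-detected cells the direction depended on which control was used. Without control 1, Ibsp was higher in mutants by 0.68 and Ifitm5 by 0.85. Without control 2, Ibsp was lower, at -0.77, as was Ifitm5, at -0.76. Within the osteoblast-like cluster the changes were -0.25 ± 0.17 and -0.21 ± 0.23, with overlapping groups, and without control 2 they were -0.54 and -0.57. A fit with 1 control assumes that it varies as the other libraries do.

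Sp7, Alpl and Ostn did not separate the groups. Sp7 over all cells was 16.4, 10.6, 9.17 and 13.4 CPM (log2 change -0.31 ± 0.26, SE). Alpl was 61.9, 39.6, 50.8 and 69.0 CPM (0.20 ± 0.24). Ostn was 5.58, 4.10, 4.53 and 8.11 CPM (0.34 ± 0.32).

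Spp1 and Mmp13 were the members with both mutants above both controls over all cells, as were 24.9% of all genes tested. No member had both mutants below both controls, as did 13.0% of all genes tested. Spp1 was 58.8, 8.70, 63.8 and 100.3 CPM, a log2 change of 1.22 ± 0.76 (SE, adjusted p = 0.91). Mmp13 was 0.849, 0.202, 2.13 and 1.97 CPM, a change of 1.81 ± 0.55 (unadjusted p = 0.019 by edgeR, adjusted p = 0.91). In the osteoblast-like cluster Runx2 (0.23 ± 0.12), Spp1 (1.62 ± 0.59) and Mmp13 (3.12 ± 0.68, unadjusted p = 9.8e-04 by edgeR, adjusted p = 0.81) were above both controls in both mutants, as were 22.6% of genes, and no member was below both in both mutants, as were 13.0% of genes. Ostn, with its 0, 0, 3 and 4 UMIs, did not pass the filter on low counts there. Mmp13, with 3, 3, 31 and 18 UMIs, passed that filter through the mutant libraries, where it was high. Its direction and p-value in this cluster are therefore not independent of the filter. The Mmp13 UMIs of this cluster lay in 2 to 4 cells per library. Spp1 in this cluster was not called with all 4 libraries (adjusted p = 0.95), but it was called by edgeR without the filter on low counts (1.58, adjusted p = 4.2e-26). With 1 library left out, its log2 change went from 0.84 (without control 2) to 3.90 (without control 1). Without mutant 1 it was 1.60 and without mutant 2 it was 1.66. Mmp13 was 3.80 without control 2 and 3.62 without mutant 2, and it was called by edgeR without the filter (3.09, adjusted p = 5.2e-05). A fit with 1 library in a group does not measure the spread within that group. As a sum of so few high cells, the Spp1 level of a library follows single cells: the highest cell of each library held 338, 34, 1113 and 595 UMIs.

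Without control 1 the log2 changes over all cells were 3.18 for Spp1 and 3.26 for Mmp13. In Runx2-detected cells they were 4.18 for Spp1 and 2.72 for Mmp13. With all 4 libraries the changes there were 1.52 ± 0.86 and 1.71 ± 0.46 (SE, adjusted p = 0.98 for both). Without control 1, 650 genes in all were called in these cells, and without control 2, 65. Bglap, at 0.934, 0.405, 0.172 and 3.09 CPM over all cells, had its lowest and its highest library in the mutant group (1.16 ± 1.13). In the osteoblast-like cluster its change of 1.04 ± 0.85 became 1.88 without mutant 1 and -3.42 without mutant 2.

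No member was called for a difference between groups in the change from gate 1 to gate 3, and a difference between groups in either single step was not tested. The first step of Ostn, for example, was 3.37, 1.93, 6.65 and 4.53-fold in the 4 libraries. Of 11497 genes, 1 (0.0087%) was called for a difference between groups in gate 3 minus gate 1, and it was the keratin gene Krt14. The largest difference with an unadjusted p under 0.05 among members was that of Spp1, at 1.67 ± 0.59 (log2, SE, unadjusted p = 0.015 by edgeR, adjusted p = 1.0), which was called without the filter on low counts (adjusted p = 1.3e-05). Mmp13 differed more, by 2.47 ± 1.28 (log2, SE, unadjusted p = 0.079 by edgeR), and Bglap by 1.41 ± 2.34. Ifitm5 differed by -0.90, Alpl by -0.46 and Ostn by 0.32. None of these was called with all libraries, and without 1 library the Alpl difference ranged from -1.08 to 0.086.

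**Figure D5:**
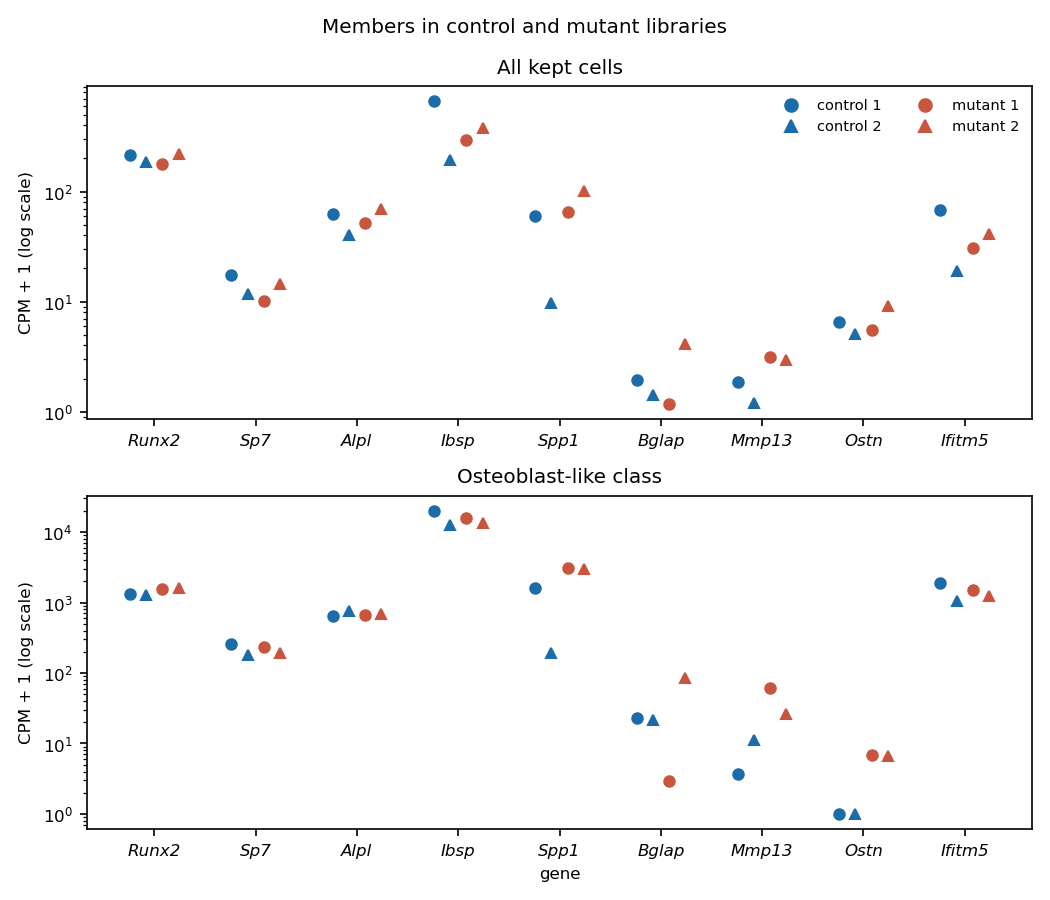
Level of each of the 9 genes in each library (CPM + 1, log axis; points, libraries; colours, control and mutant) over all kept cells and in the osteoblast-like cluster. Over all kept cells both mutants lie between the 2 controls for Ibsp and Ifitm5 and above them for Spp1 and Mmp13.

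Yap1 and Wwtr1 were also read in these cells. In Runx2-detected cells the log2 change of Yap1 was -0.25 ± 0.09 and that of Wwtr1 was -0.09 ± 0.13 (SE, neither called). In the osteoblast-like cluster Yap1 changed by -0.36 ± 0.27 and Wwtr1 by -0.57 ± 0.22 (SE, unadjusted p = 0.026 by edgeR, adjusted p = 0.95), neither called. Over all kept cells Yap1 changed by -0.25 ± 0.08 (unadjusted p = 0.017 by edgeR, adjusted p = 0.91). Wwtr1 fell from gate 1 to gate 2 by 0.56 ± 0.12 (adjusted p = 0.0054) and rose from gate 2 to gate 3 by 0.52 ± 0.13 (adjusted p = 0.018), over control and mutant libraries together. It stood at 106, 139, 118 and 123 CPM in gate 1, at 76.9, 79.7, 83.8 and 61.7 in gate 2 and at 119, 115, 91.8 and 104 in gate 3. Gate 2 was below the other gates in every library. The list of YAP and TAZ genes holds Yap1 and Wwtr1 themselves beside classic targets. Of its 7 genes tested between gates, Ajuba also fell at the first step. Between control and mutant libraries no gene of this list was called by edgeR in any of the 3 cell sets, with median log2 changes of -0.26 over all kept cells (8 tested), -0.26 in Runx2-detected cells (7 tested) and -0.49 in the osteoblast-like cluster (5 tested). The medians over all genes tested were 0.00, -0.00 and -0.01. The list medians include the changes of Yap1 and Wwtr1, so they do not describe the targets alone.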

How the data were processed

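The deposited matrices are unnormalized UMI counts of genes by barcodes, made by the authors with Cell Ranger (8.0.1 per the file headers, 4 per the submitters' processing notes, which also name Seurat 4.3.0 and mm10), already filtered to cells. Control libraries are samples titled WT, and mutants those titled cKO. From the 4566, 2827, 3624 and 4846 barcodes, those under 500 genes or over 10% mitochondrial UMIs were dropped. No doublet filter was applied: Scrublet marked at most 3 cells per library by itself, so the top-scored 0.8% per 1000 barcodes (149, 56, 87 and 163 cells) were removed as an alternative only. Clustering (scanpy 1.11.5; 2000 variable genes, 40 components, 20 neighbours, Leiden resolution 1) left out the members, Bglap2, Bglap3, mitochondrial and sex-linked genes. Clusters were named from marker lists by at least 3 markers in at least 20% of cells at 2-fold or more; this rule was set after leading genes were seen. UMI counts were summed per library and tested with edgeR 4.0.16 (TMM, filterByExpr, quasi-likelihood test) in R 4.3.3, with Benjamini-Hochberg adjustment over all genes tested and a threshold of 0.05. Shares were compared with exact permutation tests over libraries and given exact (Clopper-Pearson) intervals.

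Named genes are the 9 members, up to 4 genes of each list by mean level, the 5 largest changes per direction and step, and the 3 nearest genes by correlation; other list genes are named because they were called. One gene is not reported here. Members, lists and gates were chosen with earlier results of these data known. Alternatives were DESeq2 1.42.0, DESeq2 size factors, no filter, a replicate block, stricter cells (1000 genes, 5%), 2 Runx2 UMIs, thinning to 3000 or 5000 UMIs, Leiden resolution 2 and leaving out each library; leaving out the unnamed cluster and 5 Ibsp UMIs were added after seeing the data. On simulated counts with 200 genes changed 4-fold, 192 were called among 15291 genes for the comparison of groups in Runx2-detected cells and 190 among 11497 for the first gate step. False calls numbered 7 and 9, and the sign was right for 197 and 191 of the changed genes. Smaller changes were not simulated, so these counts do not give the power for the members' changes. Positions come from GENCODE M21, in which 32158 of 32285 features were found by identifier.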

Additional observations from a re-analysis of the deposited data

Results flagged for a closer look

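The only difference between groups in the change from gate 1 to gate 3 that passed the test was that of Krt14, a keratin of surface epithelia and not one of the 9 genes. The difference, mutant minus control, was -5.51 ± 0.56 on the log2 scale (SE, edgeR adjusted p = 0.0076). Krt14 stood at 145, 77.1, 103 and 148 CPM in gate 1 and at 128, 178, 3.60 and 3.72 CPM in gate 3. The 10 keratinocyte markers summed in gate 3 to 603 and 1474 CPM in the controls and to 57.6 and 123 CPM in the mutants, and in the gate 3 cells with at least 5 Ibsp UMIs to between 20.3 and 60.2 CPM. The part of these cells in the difference was not tested.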

How the results depend on the processing

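Between control and mutant libraries, counts of called genes (edgeR adjusted p under 0.05) moved from 0 to 10 (all cells), 2 (Runx2-detected cells) and 63 (osteoblast-like cluster) with no filter on low counts, and to 30 and 7 with DESeq2 for the first 2 of these. With Leiden resolution 2, clusters 5, 32 and 33 together gave 1. Replicate numbers share only a number: same-numbered libraries correlated at -0.035, -0.047 and 0.052 in the 3 cell sets, and with a replicate block 0, 2 and 2 genes were called, and the Ifitm5 change in Runx2-detected cells was 0.0043. Leaving out each library in turn gave 0 to 410 (all cells), 0 to 650 (Runx2-detected) and 12 to 80 (osteoblast-like) genes, and the lone library of a group was then assumed to vary as the others do. The first gate step gave 913 to 2047 called genes and the second 702 to 1513 without 1 library, 300 and 553 with cells thinned to 3000 UMIs, and the second 3010 with 5 Ibsp UMIs. For the difference between groups in the gate steps, called genes went from 1 to 104 without a filter, 4 without doublets, 0 after thinning, and 1 to 72 without 1 library.

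Directions of members between groups changed without 1 library as follows (log2, lowest to highest). In all cells: Runx2 -0.20 to 0.083, Sp7 -0.60 to 0.035, Alpl -0.077 to 0.54, Ibsp -1.00 to 0.74, Bglap -2.01 to 2.10, Ostn -0.13 to 0.70 and Ifitm5 -0.97 to 0.89. In Runx2-detected cells: Alpl -0.050 to 0.44, Ibsp -0.77 to 0.68, Bglap -3.78 to 2.38 and Ifitm5 -0.76 to 0.85. In the osteoblast-like cluster: Sp7 -0.38 to 0.14, Ibsp -0.54 to 0.11, Bglap -3.42 to 1.88 and Ifitm5 -0.57 to 0.31. For the gate steps: Mmp13 -0.39 to 0.81 at the first, and for the difference between groups Alpl -1.08 to 0.086, Bglap -1.93 to 2.16 and Ostn -0.94 to 0.79. The mutant minus control difference in percentage points ranged from -3.45 to 0.633 for Runx2, -2.08 to 1.56 for Sp7 and -1.63 to 6.38 for Ibsp, and was -0.297 for Ibsp without thinning. The causes were not tested. Thinning removes UMIs, and leaving out a library removes a sample. The directions of Spp1 and Mmp13 between groups, and of Alpl, Ifitm5 and Ostn at both gate steps, held in every alternative run. Spp1, Bglap and Mmp13 rest on few cells, which limits their precision.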
